A study of Mus musculus with 8 samples.

Results

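Mouse embryonic stem cells (ESCs) that carried the F266A mutant of WDR5 and had been taken off doxycycline (F266A -dox) were set against ESCs in which wild-type WDR5 stayed induced (WT +dox), the pair of conditions that lies farthest apart in the study's layout. The comparison used 4 of the 8 arrays of the series, 2 in each condition, and covered 11940 genes. A gene was included when at least 1 probe set that carries its symbol alone exceeded 50 on the linear scale in at least 1 of the 8 arrays. The groups were F266A -dox (no doxycycline), F266A +dox (2 µg per mL), WT -dox (no doxycycline) and WT +dox (2 µg per mL), 2 arrays each and given as biological duplicates.

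All groups were V6.5 mouse ESCs infected with a lentivirus that constantly makes an shRNA against the mouse Wdr5 mRNA, so no group had its own Wdr5 left untouched. The same virus carried human WDR5, wild type (WT) or F266A, linked to green fluorescent protein (GFP) behind a doxycycline-inducible promoter, and a further virus supplied the transactivator rtTA. GFP-positive cells were sorted, plated on gelatin in medium with LIF, and kept with or without doxycycline for 6 days before RNA was taken. The sources used here name 1 WT and 1 F266A line. The study reported equal transcription of both transgenes but less protein of the mutant. F266A -dox and WT +dox thus differed in line and in doxycycline at once, and this contrast alone cannot tell these apart. The duplicates show the spread within a line, so p-values measure that spread only.

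WDR5 is a WD-repeat scaffold that holds together the MLL and SET1 complexes, which methylate lysine 4 of histone H3 at active promoters. F266A replaces a phenylalanine in the cleft of WDR5 that binds RNA. Mouse ESCs in serum and LIF rest in a naive state held by a circuit of factors such as Nanog, Esrrb, Klf4 and Tfcp2l1, and on their way to differentiation they pass through a primed state like that of the epiblast after implantation, marked by Fgf5, Pou3f1, Otx2 and the de novo DNA methyltransferases.

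Values are robust multi-array average (RMA) levels on the log2 scale, in which 1 unit is a 2-fold difference. Differences are F266A -dox minus WT +dox unless stated otherwise, given ± standard error from a limma fit of all 8 arrays, with p adjusted by Benjamini-Hochberg over the 11940 genes. A gene was called, and is said to have risen or fallen, at an adjusted p under 0.05. Levels are compared between arrays for a gene and not between genes. A mean under 5.64, the expression minimum on the log2 scale, is a signal that was not shown to exceed background. Of the genes named below, this held for at least 1 group mean of Fgf5, Cdh2, Zic2, Sall2, Gbp2b, Gbp3, Gbp7, Ifit2, Prickle1, Irgm1, Hs6st2, 2410003I16Rik, Lrrc31, Zc3h6, Fgg, Dleu7, Car8, Prss23, Cdx2, Gata6, Sox1, Pax6, Nefm, Nrcam, Fgf8, Twist1, Foxa2, Tead4, Cnn1, Col1a2, Bgn, Tnfrsf19, Slc16a3, Ccnd2, Pcgf1 and Hoxd8, whose differences are therefore less certain in size.

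Duplicates correlated at Pearson's r of 0.9969 to 0.9977, and arrays of different groups at 0.9853 to 0.9958. The middle probe set of the 18S ribosomal RNA control was at 9.57 and 9.60 in F266A -dox, compared to 10.99 and 11.42 in WT +dox, its 3' probe set at 10.12 and 10.27 compared to 11.42 and 11.25, and its 5' probe set at 10.08 and 10.01 compared to 12.10 and 11.76. The 3' probe set of a control gene read above the 5' one by 0.632 and 0.633 against 0.687 and 0.729 for Actb and 0.152 and 0.160 against 0.106 and 0.134 for Gapdh, again F266A -dox against WT +dox. For Tfrc the same gap was 3.22 and 2.99 in F266A -dox, compared to 2.86 and 2.69 in WT +dox, and for Pcx, where the groups overlapped, 0.740 and 0.581 compared to 0.611 and 0.507. Genes of chromosome 8 had a median difference of 0.20 (313 of 652 rose, 48.0%, and 77 fell, 11.8%) and those of chromosome 6 of 0.12 (231 of 571 rose, 40.5%, and 106 fell, 18.6%). Genes outside these chromosomes had a median of -0.01, and 2548 (23.8%) rose and 2794 (26.1%) fell of 10701. Of the genes named below, Nanog, Dppa3, Tead4, Col1a2, Asns, Pdia4, Kdm3a, Gadd45a, Mad2l1, Mcm2, Ccnd2, Cdkn1b, Ezh2, Pcgf1, Apobec1, Hoxa5, Mest and Igf2bp3 lie on chromosome 6 and Col4a1, Col4a2, Ankrd37, Sox1, Cdh1, Mmp2, Calr, Dusp4, Junb and Msmo1 on chromosome 8. The part of the 18S signal, of the control gaps and of these chromosomes in the gene differences was not tested.

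The cells kept the markers of ESCs. All 8 ESC markers exceeded the minimum, with a summed linear level of 43960 to 46275 in F266A -dox, against 57206 to 58013 in WT +dox, and 5 of the 8 fell. Fibroblast markers summed to 232.0 to 247 in F266A -dox, against 216 to 222 in WT +dox, and 9 of 10 (Col1a1, Col3a1, Thy1, Pdgfrb, Postn, Dcn, Lum, Twist2 and Prrx1) stayed under the minimum in all arrays. Trophoblast markers summed to 630.2 to 754 against 546 to 567, with 5 of 8 over the minimum and 3 risen, and Elf5, Gata3 and Plac1 under it throughout. This linear sum leans on the brightest marker, a keratin, at 8.24 and 8.66 in F266A -dox, compared to 7.96 and 8.04 in WT +dox. The next brightest marker did not pass the test (-0.16). Primitive endoderm markers summed to 304.5 to 320.4 against 257.0 to 265.5, with 5 of 9 over the minimum and 2 risen, and Gata4, Sox17, Sox7 and Afp under it throughout. Neural progenitor markers (4 of 6 over the minimum, Zic1 and Fabp7 under it) summed to 447 to 449 against 482 to 495, with 2 risen (Nes and Pax6) and 2 fallen. Their linear sum leans on the brightest marker, which fell. Haematopoietic markers (1 of 4 over the minimum, with Ptprc, Tal1 and Lyz2 under it) summed to 180.0 to 199 against 440.3 to 449.6. The member of the last list over the minimum was Cd68, a macrophage marker, at 6.82 and 7.01 in F266A -dox, compared to 8.61 and 8.56 in WT +dox (-1.67, adjusted p = 6.3e-07). In RNA from whole cultures, fewer cells of a type and less RNA per cell cannot be told apart.

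Wdr5 was the first gene examined. It read 9.31 and 9.27 in F266A -dox, 8.59 and 8.56 in F266A +dox, 9.45 and 9.35 in WT -dox and 8.35 and 8.32 in WT +dox. Its signal was high in all 4 arrays without doxycycline and low in all 4 with it. The rise over WT +dox was 0.95 ± 0.07 (adjusted p = 4.16e-06). Both probe sets rose, by 0.66 and by 1.25. Wdr5 lies at chr2:27515147-27536535 (GRCm38.p6), and every group carried the shRNA. Whether the mouse probes also read the human transgene was not tested, so the Wdr5 level was not taken as a check of the labels.

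Of the 11940 genes, 3095 rose (25.9%) and 2985 fell (25.0%) in F266A -dox relative to WT +dox. The arrays of the 2 groups did not overlap in any of these 6080 genes, nor in 8928 of all genes tested (74.8%). With a difference of at least 2-fold, 400 genes rose (3.35%) and 253 fell (2.12%). Of these 653 genes, 182 had a mean under the minimum in F266A -dox, in WT +dox or in both. The counts given below for lists of genes are to be read beside the 25.9% of all genes that rose and the 25.0% that fell. The lists were chosen with earlier results of these data known. A SAM-type statistic added the median standard error of all genes to that of each gene, which lowers every t value. Its p-values came from a t distribution without permutation, so it is not the SAM run of the study's methods, which was not repeated. It called 0 genes (2899 at an unadjusted p under 0.05), and 2301 with p-values from the residual plus prior degrees of freedom, a version chosen after seeing the data.

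Among genes with both means over the minimum, the highest differences belonged to an interferon-inducible GTPase, a growth factor regulator and an epithelial keratin. Gbp2, a guanylate-binding protein, read 9.31 and 9.74 in F266A -dox, 8.47 and 8.40 in F266A +dox, 6.84 and 7.08 in WT -dox and 5.76 and 5.87 in WT +dox, a rise of 3.71 ± 0.13 (adjusted p = 1.62e-07). Igfbp3, which binds insulin-like growth factors, read 9.95 and 10.09, 8.77 and 8.61, 7.75 and 7.94, and 6.90 and 6.17 in the same order of groups, a rise of 3.49 ± 0.19. Krt19, a keratin of simple epithelia, read 10.03 and 10.49 in F266A -dox, compared to 6.93 and 6.90 in WT +dox, a rise of 3.34 ± 0.13. In all 3 genes the intermediate groups lay between these, and both F266A +dox arrays lay above both WT -dox arrays. Amot, a junction protein that binds the coactivator YAP, rose by 3.33 ± 0.10 with 9.85 and 9.90 in F266A -dox, compared to 6.45 and 6.65 in WT +dox. Fndc3c1 rose by 3.31 ± 0.15, Sp5, a zinc finger target of WNT signalling, by 3.20 ± 0.13, the serine/threonine kinase gene Pim2 by 3.12 ± 0.10, Myc by 2.94 ± 0.10, the carbonic anhydrase gene Car2 by 2.91 ± 0.10 and the calcium-binding S100a6 by 2.87 ± 0.11. Lrp2, an endocytic receptor (2.84 ± 0.09), and Fgfbp1, a carrier of FGFs (2.71 ± 0.17), completed the 12 highest genes with both means over the minimum. Among those with a mean under it, the planar polarity gene Prickle1 rose by 3.11 ± 0.11, the immunity-related GTPase gene Irgm1 by 3.05 ± 0.14 and the heparan sulfate sulfotransferase gene Hs6st2 by 3.0 ± 0.15, beside Fgf5, Gbp2b and Cdh2, described with their groups.

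The lowest difference with both means over the minimum was that of Nupr1, a small chromatin-associated regulator induced by stress. It read 7.79 and 7.75 in F266A -dox, 8.30 and 8.26 in F266A +dox, 8.58 and 8.48 in WT -dox and 10.91 and 10.79 in WT +dox, and fell by 3.08 ± 0.07 (adjusted p = 5.53e-08). WT +dox stood alone at a high level while the other 3 groups lay within 1 unit of each other. Acss1, the mitochondrial acetyl-CoA synthetase, read 5.60 and 5.80 in F266A -dox, compared to 8.31 and 8.35 in WT +dox, and fell by 2.63 ± 0.10. Kdelr3, a receptor that returns proteins to the endoplasmic reticulum, fell by 2.26 ± 0.08, Ly6g6e, of the LY6 family, by 2.17 ± 0.07, and the serpin gene Serpinb6c by 2.09 ± 0.07. Camk2n1, an inhibitor of CaM kinase II, fell by 2.04 ± 0.12, with its 2 probe sets at -2.85 and -1.22. The matrix protein gene Tgfbi fell by 2.01 ± 0.09, the axon guidance ligand gene Slit2 by 1.99 ± 0.11 and Tmem35b by 1.97 ± 0.09, and Jdp2, Xaf1 and Rrm2b, given with their groups, made up the 12. Among genes with a mean under the minimum, 2410003I16Rik (4.21 and 4.10 in F266A -dox, compared to 7.39 and 7.76 in WT +dox) fell by 3.42 ± 0.14 and Lrrc31 (4.82 and 4.85, against 7.56 and 7.75) by 2.82 ± 0.08. Zc3h6 fell by 2.21 ± 0.19, Dleu7 by 1.98 ± 0.11, Car8 by 1.97 ± 0.10 and the fibrinogen chain gene Fgg by 1.98 ± 0.10.

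**Figure D1:**
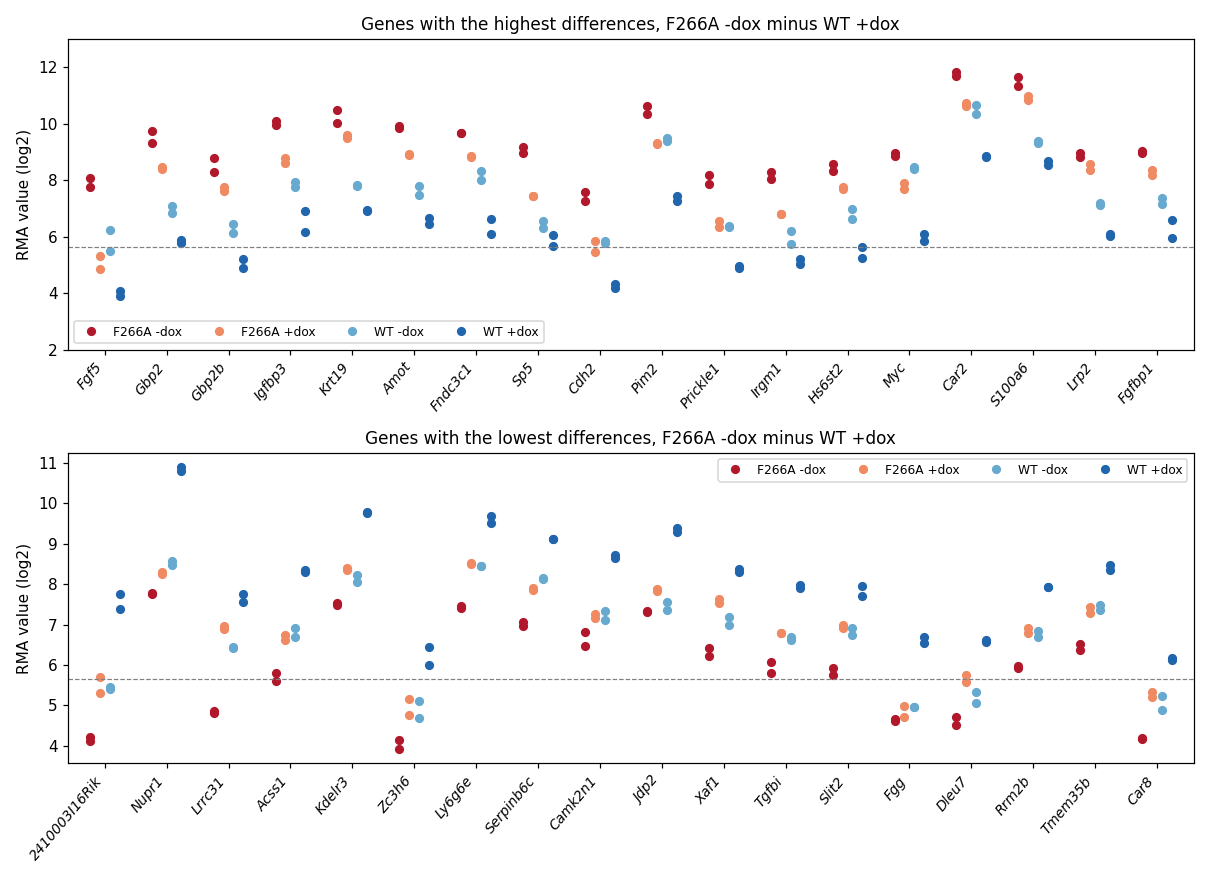
RMA values (log2, vertical axis) of the genes with the highest (upper panel) and lowest (lower panel) differences F266A -dox minus WT +dox, with 1 point for each of the 8 arrays, coloured by group, and the expression minimum of 5.64 as a dashed line. F266A -dox and WT +dox form the outer points of each gene, for instance 9.31 and 9.74 against 5.76 and 5.87 for Gbp2 and 7.79 and 7.75 against 10.91 and 10.79 for Nupr1.

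Genes of the primed epiblast rose without exception among those measured. All 22 tested members rose, 14 of them at least 2-fold, with a median of 1.42 beside 0.0023 over all genes tested. Fgf5, the growth factor that marks the epiblast after implantation (chr5:98254184-98277033), read 7.74 and 8.06 in F266A -dox, 5.31 and 4.86 in F266A +dox, 5.49 and 6.24 in WT -dox and 4.06 and 3.88 in WT +dox (3.93 ± 0.23, adjusted p = 1.45e-06). Both F266A -dox arrays exceeded every other array, and of the rest only 1 WT -dox array exceeded the minimum. Cdh2, N-cadherin, read 7.59 and 7.26 in F266A -dox, 5.83 and 5.47 in F266A +dox, 5.78 and 5.83 in WT -dox and 4.31 and 4.17 in WT +dox (3.18 ± 0.13, adjusted p = 3.6e-07). Pim2 read 10.61 and 10.32, 9.32 and 9.29, 9.40 and 9.48, and 7.44 and 7.25 in the same order. For both genes the intermediate groups lay close together between the extremes. Pou3f1, a POU-domain factor of primed and neural cells, rose by 2.35 ± 0.09, Zic2, a zinc finger factor, by 2.32 ± 0.12, Sall2 by 2.13 ± 0.14 and Dnmt3b, a de novo DNA methyltransferase, by 2.11 ± 0.09. Otx2, a homeodomain factor of the primed state, read 8.82 and 8.78 in F266A -dox, 8.72 and 8.56 in F266A +dox, 9.18 and 9.15 in WT -dox and 8.13 and 8.21 in WT +dox (0.63 ± 0.08, adjusted p = 0.000112). It was thus highest in WT -dox, unlike the other members named.

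Genes of the naive network moved the other way. Of 24 tested members 20 fell and 2 rose, with a median of -0.80. Tcl1, a coactivator of the kinase AKT, read 9.66 and 9.76 in F266A -dox, 10.50 and 10.50 in F266A +dox, 10.54 and 10.61 in WT -dox and 11.50 and 11.44 in WT +dox, and fell by 1.76 ± 0.07 (adjusted p = 2.18e-07). Klf4, a Krüppel-like factor downstream of LIF, read 10.83 and 10.85, 11.76 and 11.78, 11.55 and 11.64, and 12.07 and 12.22 in the same order, and fell by 1.31 ± 0.07. Esrrb, a nuclear receptor, read 8.54 and 8.59, 9.24 and 9.24, 9.29 and 9.27, and 9.65 and 9.64, and fell by 1.08 ± 0.06 (adjusted p = 1.44e-06). In these 3 genes F266A -dox was lowest, WT +dox highest and the other groups close to each other. The junction protein gene Jam2 fell by 1.46 ± 0.08 (its 4 probe sets at -2.49 to -0.33), the T-box factor gene Tbx3 by 1.39 ± 0.08, Mybl2, which drives cell cycle genes, by 1.22 ± 0.08, Tfcp2l1 by 1.19 ± 0.08 and the adhesion molecule gene Pecam1 by 1.12 ± 0.13. The 2 members that rose were Gbx2, a homeodomain factor, and Dppa3, a maternal factor that guards DNA methylation. Gbx2 read 7.63 and 7.42 in F266A -dox, 7.31 and 7.20 in F266A +dox, 7.92 and 8.12 in WT -dox and 6.09 and 6.14 in WT +dox (1.42 ± 0.10). Dppa3 read 9.92 and 10.03, 9.52 and 9.43, 10.29 and 10.15, and 9.22 and 9.14 in the same order (0.79 ± 0.08). Both were highest in WT -dox.

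The core factors shared by naive and primed cells moved less. Of 13 tested members 5 rose and 3 fell, none of them by 2-fold, with a median of 0.06. Pou5f1, the POU factor at the centre of the network, read 12.83 and 12.72 in F266A -dox, compared to 12.92 and 12.87 in WT +dox (-0.12 ± 0.08, adjusted p = 0.221). Nanog read 11.92 and 11.78 in F266A -dox, 12.35 and 12.37 in F266A +dox, 12.28 and 12.39 in WT -dox and 12.70 and 12.70 in WT +dox, and fell by 0.85 ± 0.07 (adjusted p = 1.6e-05). Sox2 fell by 0.51 ± 0.08 (adjusted p = 0.000595). Nanog and Sox2 were lowest in F266A -dox, and Pou5f1 did not pass the test. L1td1, an RNA-binding protein gene, rose by 0.56 ± 0.08 and Trim71, a repressor of mRNAs, by 0.35 ± 0.07. Lin28a, which blocks let-7 processing, read 9.59 and 9.39 in F266A -dox, compared to 9.21 and 8.60 in WT +dox (0.59 ± 0.17, adjusted p = 0.0169), and the call was lost without WT +dox replicate 2 (0.28, adjusted p = 0.0920) or without F266A -dox replicate 1 (0.49, adjusted p = 0.0901).

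**Figure D2:**
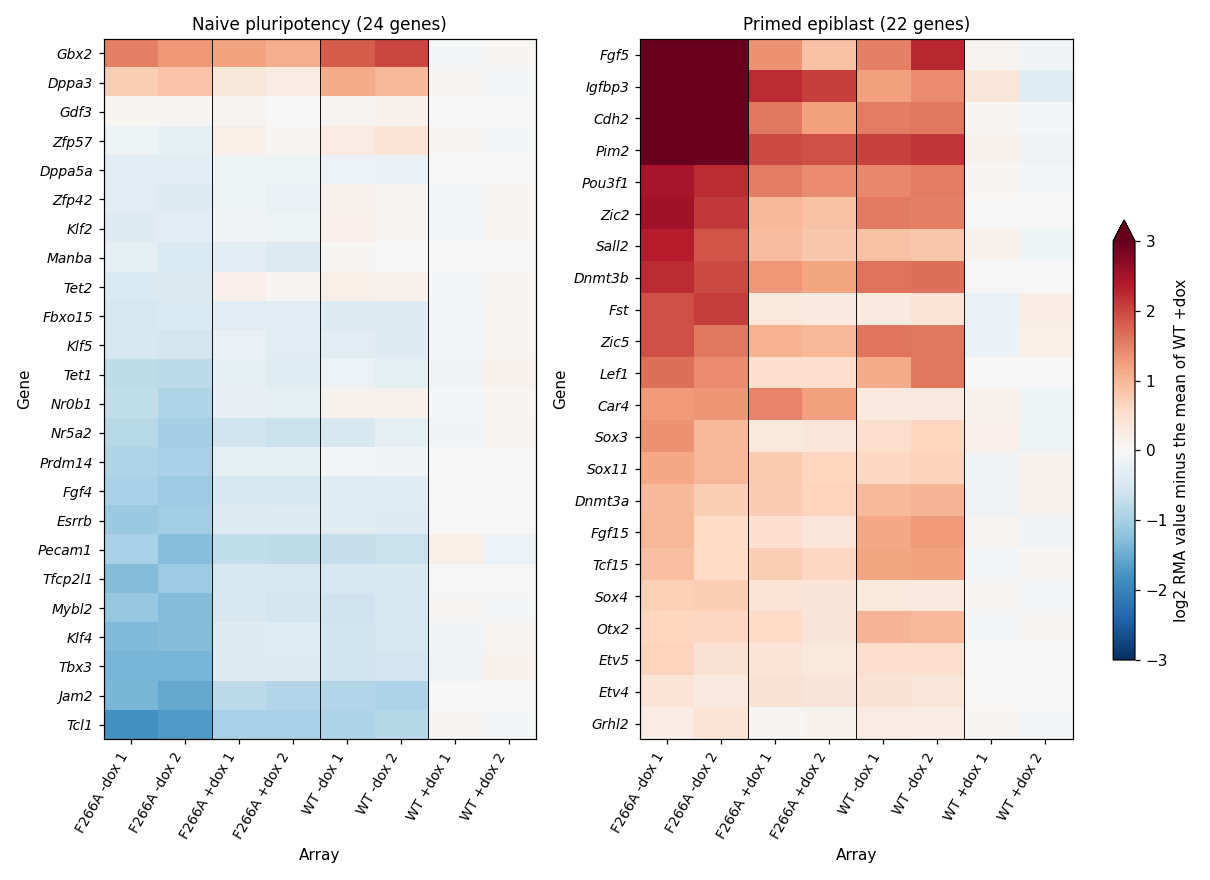
Log2 RMA value minus the mean of WT +dox (colour, red higher and blue lower) of the 24 naive (left panel) and 22 primed genes (right panel) in each of the 8 arrays, genes ordered by their difference in F266A -dox. All 22 primed genes are red in F266A -dox, and 20 of 24 naive genes fell, with Gbx2 (1.42) and Dppa3 (0.79) as the exceptions that rose.

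Early lineage genes moved in both directions. In the ectoderm and neural list 11 of 22 rose and 4 fell (median 0.28), and 6 listed genes were not tested. Nefm and Nefl, neurofilament subunits, rose by 2.76 ± 0.14 and 2.45 ± 0.11, and Nefl read 10.65 and 10.65 in F266A -dox, compared to 8.14 and 8.27 in WT +dox. The adhesion molecule gene Nrcam rose by 1.99 ± 0.17, Ina, a further neuronal intermediate filament, by 1.79 ± 0.08, and Crabp2, which carries retinoic acid, by 1.54 ± 0.12. Nes, the filament of neural progenitors, read 7.93 and 8.10 in F266A -dox, 7.67 and 7.63 in F266A +dox, 7.29 and 7.18 in WT -dox and 7.0 and 6.84 in WT +dox (1.10 ± 0.09). The factors that specify neural tissue differed among themselves. Pax6 rose by 0.51 ± 0.07, whereas Sox1 fell by 0.64 ± 0.12, both near the minimum, and their calls were lost when the probe set with the highest mean stood for the gene (0.05 and -0.21). Hesx1, a homeodomain repressor of the anterior epiblast, read 6.88 and 6.75 against 8.05 and 8.20 and fell by 1.31 ± 0.08.

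Of 26 listed mesendoderm and mesoderm genes 12 were tested, of which 7 rose and 1 fell (median 0.26). The rest were under the minimum in all arrays or lacked a probe set of their own. Fgf8, a growth factor of the primitive streak, read 7.74 and 7.88 in F266A -dox, 6.10 and 6.23 in F266A +dox, 5.57 and 6.38 in WT -dox and 4.93 and 5.11 in WT +dox (2.79 ± 0.21, adjusted p = 6.04e-06). Bmp4 rose by 1.28 ± 0.08 and the mesenchymal factor gene Twist1 by 0.77 ± 0.10. Mixl1, a homeodomain factor of the streak, read 6.38 and 6.73, 5.77 and 5.86, 5.88 and 5.83, and 5.73 and 5.77 in the same order (0.81 ± 0.10, adjusted p = 0.000185). Both F266A -dox arrays exceeded all others, as they did for Eomes, a T-box factor, at 8.18 and 8.10 in F266A -dox, compared to 7.76 and 7.78 in WT +dox (0.37 ± 0.08). Of 26 listed endoderm genes 12 were tested, of which 5 rose and 3 fell (median 0.18), beside 25.9% higher and 25.0% lower over all genes. Gata4, Sox17, Sox7 and Afp were among those under the minimum in all arrays. Lrp2 read 8.83 and 8.96 in F266A -dox, compared to 6.09 and 6.02 in WT +dox, Spink1, a secreted protease inhibitor, rose by 2.05 ± 0.10 and Dab2, an endocytic adaptor, by 1.28 ± 0.16. Apoe, a lipid carrier, fell by 1.17 ± 0.08, and Foxa2, a forkhead factor, rose by 0.77 ± 0.07 with 6.06 and 5.97 against 5.28 and 5.22. Gata6, which drives primitive endoderm, read 5.53 and 5.25 against 5.43 and 5.57 (-0.12 ± 0.11, adjusted p = 0.429).

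Of 20 listed trophectoderm genes 15 were tested, of which 8 rose and 2 fell (median 0.42). Id2, an inhibitor of basic helix-loop-helix factors, rose by 1.35 ± 0.07, the FGF receptor gene Fgfr2 by 1.04 ± 0.15 and Bmp8b by 0.97 ± 0.13. Cdx2, the homeodomain factor of the trophectoderm, read 6.22 and 6.13 in F266A -dox, 5.33 and 5.66 in F266A +dox, 5.65 and 5.33 in WT -dox and 5.41 and 4.96 in WT +dox (0.99 ± 0.16, adjusted p = 0.000785). It cleared the minimum in F266A -dox alone by its mean. Other trophoblast regulators did not go the same way: Tfap2c fell by 0.77 ± 0.07 and Tead4 by 0.66 ± 0.08 (for Tead4 the call was lost with the probe set of highest mean, -0.27), and Hand1 read 6.74 and 6.86 against 6.62 and 6.61 (0.19 ± 0.09, adjusted p = 0.0913). Of 33 listed germline and meiosis genes 18 were tested, of which 12 fell and 2 rose (median -0.38). Sycp3, of the meiotic chromosome axis, read 7.01 and 6.77 in F266A -dox, compared to 8.42 and 8.63 in WT +dox, and fell by 1.64 ± 0.10. Prdm1, which specifies germ cells, fell by 1.44 ± 0.08, the RNA-binding protein gene Dazl by 1.30 ± 0.08, the piRNA pathway gene Mael by 0.97 ± 0.15 and the cohesin gene Stag3 by 0.90 ± 0.08. Of 30 listed Hox genes, which pattern the body axis, 9 were tested, of which 2 fell and 7 did not pass the test. Hoxd8 fell by 0.39 ± 0.11 and Hoxa5 by 0.31 ± 0.08 (list median -0.01), and both calls were lost without F266A -dox replicate 2 (-0.39 and -0.25) and on leaving out some other arrays. None of the 17 listed genes of the 2-cell-like state was tested, since none passed the minimum with a probe set of its own.

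Imprinted genes are transcribed from the maternal or the paternal copy only. Of 23 tested 17 rose and 2 fell, 9 of them rising at least 2-fold, with a median of 0.76. Igf2, a growth factor made from the paternal copy (chr7:142650768-142666816), read 11.08 and 11.14 in F266A -dox, 10.56 and 10.41 in F266A +dox, 8.75 and 8.85 in WT -dox and 8.36 and 8.64 in WT +dox (2.61 ± 0.10, adjusted p = 2.07e-07). Its F266A arrays were all above 10 and its WT arrays all under 9. Cdkn1c, a maternally expressed inhibitor of cyclin-dependent kinases, read 8.77 and 8.67, 8.23 and 7.95, 7.93 and 8.05, and 6.58 and 6.92 in the same order (1.96 ± 0.12). The paternally expressed genes Mest, Peg3 and Zdbf2 rose by 1.79 ± 0.08, 1.58 ± 0.10 and 1.23 ± 0.08, and the noncoding RNA Meg3, made from the maternal copy, by 0.63 ± 0.09 (its 10 probe sets at 0.18 to 1.27). Genes of either parental copy were thus among those that rose. Grb10, an adaptor that restrains insulin signalling, fell by 0.30 ± 0.06.

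The contractile and caveolar list, cytoskeletal and membrane genes known from smooth muscle and mesenchyme, held the highest median of all lists, 1.50. Since the lists were chosen with earlier results of these data known, this rank is a description only. Of 29 tested members 25 rose, 20 of them at least 2-fold, and 2 fell. Tagln, transgelin, read 11.93 and 12.27 in F266A -dox, 11.80 and 11.66 in F266A +dox, 10.25 and 10.36 in WT -dox and 9.67 and 9.57 in WT +dox (2.48 ± 0.11, adjusted p = 4.49e-07). Cnn1, calponin, read 8.29 and 8.19, 7.77 and 7.69, 6.73 and 6.74, and 5.62 and 5.45 in the same order (2.70 ± 0.08). Anxa1, a phospholipid-binding annexin, read 11.16 and 11.57, 10.82 and 10.88, 9.29 and 9.57, and 8.88 and 9.07 (2.39 ± 0.14). In each of these all F266A arrays stood above all WT arrays, with or without doxycycline. Anxa3 rose by 2.59 ± 0.12, Vim, vimentin, by 2.17 ± 0.10, the myosin light chain gene Myl9 by 2.06 ± 0.10, and Ccn1 and Ccn2, matrix-associated proteins known as YAP targets, by 1.98 ± 0.09 and 1.91 ± 0.09. Acta2, smooth muscle actin, varied more between duplicates, at 10.58 and 11.32 in F266A -dox, 10.84 and 10.92 in F266A +dox, 9.17 and 9.69 in WT -dox and 9.24 and 9.64 in WT +dox (1.51 ± 0.24, adjusted p = 0.000634). Tagln2 fell by 0.30 ± 0.07, and without replicate 1 of WT +dox it was not called (-0.23, adjusted p = 0.0537).

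Fibroblast genes were mostly below the minimum. Of 18 listed 5 were tested, of which 4 rose and 1 did not pass the test (median 0.51). Col5a1, a minor fibrillar collagen, read 7.35 and 7.20 in F266A -dox, compared to 5.96 and 6.16 in WT +dox (1.22 ± 0.09), and the matrix protease gene Mmp2 rose by 0.45 ± 0.09. Col1a2 (0.63 ± 0.16) and Bgn (0.51 ± 0.11) leaned on F266A -dox replicate 2, with 6.14 and 6.71 against 5.88 and 5.70 for Col1a2, and without it their differences were 0.35 and 0.31. The Col1a2 call was lost without WT +dox replicate 2 (0.54, adjusted p = 0.0519).

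Keratins of simple epithelia and basement membrane genes moved apart within their lists. Of 26 keratin and junction genes 15 rose and 7 fell (median 0.38). Krt8 and Krt18, partners in 1 filament, rose by 2.70 ± 0.09 and 2.52 ± 0.09. Krt8 read 12.61 and 12.81 in F266A -dox, 12.23 and 12.24 in F266A +dox, 10.49 and 10.67 in WT -dox and 9.97 and 10.03 in WT +dox, so that the gap was mostly between the lines. The desmosomal plaque gene Pkp2 rose by 1.47 ± 0.08, while the gap junction gene Gjb5 fell by 1.04 ± 0.08. Cdh1, E-cadherin, rose by 0.41 ± 0.07 beside the larger rise of Cdh2. Dsp, desmoplakin, read 10.69 and 10.79, 10.68 and 10.79, 9.09 and 9.30, and 9.98 and 10.31 (0.60 ± 0.12), with WT -dox lowest of all. Of 19 basement membrane genes 6 rose and 7 fell (median -0.10). Lama1, the laminin chain of the early embryo, read 7.30 and 7.06 in F266A -dox, 8.46 and 8.33 in F266A +dox, 7.95 and 8.13 in WT -dox and 9.08 and 9.22 in WT +dox, and fell by 1.97 ± 0.10. Nid1, which links laminin to collagen, fell by 1.35 ± 0.07 and the fibronectin gene Fn1 by 0.50 ± 0.09. Against them, the head-to-head pair Col4a1 and Col4a2, the chains of type IV collagen, rose by 1.68 ± 0.09 and 1.83 ± 0.12 and their chaperone Serpinh1 by 1.06 ± 0.11.

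The promoters of contractile genes are shown because several carry the core of the element that TEAD factors, the DNA-binding partners of YAP, recognise. The 250 bases before each annotated start of a gene, in RefSeq's GRCm38.p6 annotation, were searched on both strands for GGAATG. The search covered 12331 promoters of 9640 genes. Here and for the motifs below, a gene with several starts counted when any of its promoters held a match. Distances are to a start whose promoter holds a match, which need not be the outermost start of the gene. It was found in 9 of the 23 contractile genes with a promoter in that table (39.1%), in 12.9% of the 9640 tested genes with one, in 13.7% of those that rose and in 12.7% of those that fell. The 9 genes also included Tagln2, which fell, and some that did not pass the test, and the windows are of genes that rose. In the windows below, written 5′ to 3′ along the gene, capitals mark the match, which on 3 of 4 promoters lies on the opposite strand. Cavin1, a caveolar coat protein gene, read 8.70 and 9.04 in F266A -dox, compared to 6.95 and 6.93 in WT +dox (1.93 ± 0.10). The windows are Anxa1 at chr19:20390822-20390921 (minus strand), Ccn1 at chr3:145650036-145650135 (minus), Cavin1 at chr11:100970766-100970865 (minus) and Acta2 at chr19:34255467-34255566 (minus). The match in Ccn1 ends 98 bases before the start, that in Acta2 141 bases, that in Anxa1 231 bases and that in Cavin1 244 bases.
Anxa1: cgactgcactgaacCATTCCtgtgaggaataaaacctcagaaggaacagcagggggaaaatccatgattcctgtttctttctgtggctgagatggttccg
Ccn1: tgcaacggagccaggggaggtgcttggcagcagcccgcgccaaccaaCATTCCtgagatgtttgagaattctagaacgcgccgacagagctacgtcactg
Cavin1: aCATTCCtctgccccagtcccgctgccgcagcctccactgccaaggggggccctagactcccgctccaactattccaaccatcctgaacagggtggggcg
Acta2: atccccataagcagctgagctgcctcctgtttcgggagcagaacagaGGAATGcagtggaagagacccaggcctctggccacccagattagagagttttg

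Targets of FGF, BMP and WNT signals rose more often than they fell. Among FGF and ERK targets 14 of 22 rose and 1 fell (median 0.41). Myc, a driver of growth genes, read 8.97 and 8.84 in F266A -dox, 7.88 and 7.67 in F266A +dox, 8.47 and 8.41 in WT -dox and 5.84 and 6.09 in WT +dox (2.94 ± 0.10, adjusted p = 1.32e-07). WT +dox lay near the minimum and apart from the other 3 groups. The ERK phosphatase genes Dusp4 and Dusp6 rose by 1.66 ± 0.11 and 1.26 ± 0.10, Phlda1 by 1.41 ± 0.10 and Ier3, an immediate early gene, by 1.37 ± 0.11. Egr1, a further immediate early gene, read 9.85 and 9.88 against 9.58 and 9.76 (0.20 ± 0.08, adjusted p = 0.0793; called without WT +dox replicate 2, at 0.29), and the ERK inhibitor gene Spred2 fell by 0.22 ± 0.08, a call that several alternatives did not keep. Of 21 targets of BMP, WNT and NODAL 12 rose and 5 fell (median 0.29). Id3, a BMP target, read 9.53 and 9.48 in F266A -dox, 8.98 and 8.90 in F266A +dox, 8.74 and 8.64 in WT -dox and 6.77 and 6.85 in WT +dox (2.70 ± 0.07, adjusted p = 9.58e-08). Sp5 read 8.96 and 9.18, 7.45 and 7.42, 6.29 and 6.57, and 6.06 and 5.68 in the same order. Id3 was set apart by its low level in WT +dox, Sp5 by its high level in F266A -dox. Id1 rose by 2.05 ± 0.08, the WNT targets Tnfrsf19, Lef1 and Axin2 by 1.70 ± 0.10, 1.54 ± 0.14 and 0.88 ± 0.09. Id4 fell by 1.59 ± 0.12 and Smad7, an inhibitor of the pathway, by 0.48 ± 0.07, so the ID family did not move as a unit.

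Genes of the LIF pathway, the signal that supports self-renewal, tended downwards: 10 of 17 fell and 4 rose (median -0.32). Beside Klf4 and Tfcp2l1, the feedback inhibitor gene Socs3 fell by 0.60 ± 0.07, with 9.54 and 9.65 in F266A -dox, compared to 10.15 and 10.24 in WT +dox, and the receptor gene Lifr by 0.39 ± 0.10, a call lost without F266A -dox replicate 2 (-0.28, adjusted p = 0.0609). Stat3 itself read 7.71 and 7.63 against 7.84 and 7.82 (-0.16 ± 0.07, adjusted p = 0.0836). Pim2 and Gbx2, given above, and Junb, an AP-1 subunit, which rose by 0.96 ± 0.07, were 3 of the 4 that rose.

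In the integrated stress response the factor ATF4 drives genes of amino acid synthesis and stress. Of its 36 tested members 18 fell and 3 rose (median -0.20), and 3 of the falls were at least 2-fold. Jdp2, a bZIP repressor, read 7.32 and 7.34 in F266A -dox, 7.87 and 7.83 in F266A +dox, 7.36 and 7.56 in WT -dox and 9.30 and 9.39 in WT +dox, and fell by 2.02 ± 0.08 (adjusted p = 2.53e-07). As for Nupr1, WT +dox stood apart and the other groups lay close together. Pck2, mitochondrial phosphoenolpyruvate carboxykinase, fell by 1.19 ± 0.08, Trib3, a pseudokinase, by 0.97 ± 0.09, Chac1, which degrades glutathione, by 0.97 ± 0.09, Ddit3 (CHOP) by 0.83 ± 0.08 and the asparagine synthetase gene Asns by 0.80 ± 0.06. Chac1 read 8.62 and 8.39 in F266A -dox, 8.07 and 7.92 in F266A +dox, 8.66 and 8.59 in WT -dox and 9.49 and 9.45 in WT +dox, so that it was lowest in F266A +dox. Atf4 fell by 0.39 ± 0.08. Atf3, a stress-induced bZIP factor and 1 of the 3 members that rose, rose by 1.17 ± 0.08, with 8.13 and 8.05 in F266A -dox, compared to 6.91 and 6.93 in WT +dox.

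Promoter windows of 4 of the genes that fell are shown because they hold TGATGNAA, the form of the C/EBP-ATF element bound by ATF4 dimers. This motif was found in the 250 bases before the start of 9 of 31 genes of the list with a promoter in the RefSeq table (29.0%), against 2.34% of all tested genes with one, 2.20% of those that rose and 2.97% of those that fell. The 9 genes with the motif also included some that rose, such as Atf3, and some that did not pass the test. Capitals mark the match. In Jdp2 (chr12:85599316-85599415, plus strand) it lies in the direction of the gene, 26 bases before an annotated start. That start lies inside the gene, which spans chr12:85598656-85639878. In Nupr1 (chr7:126625527-126625626, minus strand), Pck2 (chr14:55540117-55540216, plus) and Chac1 (chr2:119351003-119351102, plus) the match lies on the opposite strand, 103, 96 and 186 bases before the start.
Jdp2: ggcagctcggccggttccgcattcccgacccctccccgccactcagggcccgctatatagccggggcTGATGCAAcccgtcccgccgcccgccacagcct
Nupr1: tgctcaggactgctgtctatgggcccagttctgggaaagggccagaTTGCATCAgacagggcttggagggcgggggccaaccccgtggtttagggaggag
Pck2: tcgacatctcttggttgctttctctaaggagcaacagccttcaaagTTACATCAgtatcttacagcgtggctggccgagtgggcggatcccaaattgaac
Chac1: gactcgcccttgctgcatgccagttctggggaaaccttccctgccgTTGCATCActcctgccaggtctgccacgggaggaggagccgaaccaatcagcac

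Chaperones of the endoplasmic reticulum (ER) belong to the unfolded protein response. Of 20 tested 9 rose and 11 did not pass the test (median 0.14). Syvn1, a ubiquitin ligase of the ER, rose by 0.90 ± 0.07, Manf, a secreted ER stress protein, by 0.80 ± 0.06, and the folding factors Pdia4, Calr and Dnajb11 by 0.73 ± 0.07, 0.52 ± 0.07 and 0.46 ± 0.08. Hspa5 (BiP) read 11.43 and 11.45 in F266A -dox, compared to 11.08 and 11.13 in WT +dox (0.34 ± 0.06). None of the 20 reached a 2-fold difference. Of 23 p53 targets 7 rose and 7 fell (median 0.02), near the shares over all genes. Rrm2b, a ribonucleotide reductase subunit, read 5.93 and 5.98 in F266A -dox, 6.91 and 6.79 in F266A +dox, 6.68 and 6.85 in WT -dox and 7.92 and 7.94 in WT +dox, and fell by 1.98 ± 0.08. Plk2, a polo-like kinase, and Perp, a membrane protein of desmosomes, rose by 1.05 ± 0.09 and 1.03 ± 0.09, Gadd45a by 0.62 ± 0.08, and Eda2r fell by 0.40 ± 0.08. Mdm2, the ligase that degrades p53, fell by 0.29 ± 0.10, a call that was lost without WT +dox replicate 2 or F266A -dox replicate 1 (-0.24 and -0.22).

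Hypoxia and glycolysis genes, many of them targets of HIF factors, rose in 18 of 30 and fell in 5 (median 0.43). Slc2a1, the glucose transporter GLUT1, read 12.09 and 12.30 in F266A -dox, 11.84 and 11.72 in F266A +dox, 11.86 and 11.79 in WT -dox and 10.53 and 10.44 in WT +dox (1.71 ± 0.09, adjusted p = 6.75e-07). Bnip3, a mitophagy receptor, read 10.21 and 10.42, 9.71 and 9.53, 11.42 and 11.33, and 9.03 and 9.18 in the same order (1.21 ± 0.10). Egln3, an oxygen-sensing prolyl hydroxylase, read 7.34 and 7.30, 6.98 and 6.97, 8.42 and 8.53, and 6.41 and 6.47 (0.87 ± 0.07). For Bnip3 and Egln3 the peak was in WT -dox and not in F266A -dox. Ankrd37 rose by 1.45 ± 0.08, the lactate exporter gene Slc16a3 by 1.29 ± 0.08, the histone demethylase gene Kdm3a by 0.88 ± 0.08 and lactate dehydrogenase, Ldha, by 0.81 ± 0.08. The WT -dox means of Ankrd37 and Slc16a3 lay higher still, at 1.95 and 1.48 above WT +dox. Those of Kdm3a and Ldha, at 0.90 and 0.91 above WT +dox, were about level with F266A -dox given the standard errors. Hk1, hexokinase, fell by 1.32 ± 0.08 and Vegfa, the vascular growth factor, by 0.51 ± 0.07. Genes of sterol and fatty acid synthesis rose in 14 of 26 and fell in 1, Tm7sf2 (median 0.33). The isomerase gene Idi1 rose by 1.09 ± 0.09, the sterol enzymes Msmo1, Cyp51 and Sqle by 0.88 ± 0.07, 0.80 ± 0.09 and 0.79 ± 0.08, and the desaturase gene Scd2 by 0.72 ± 0.07, while Tm7sf2, a sterol reductase, fell by 0.64 ± 0.08.

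The core of the hypoxia response element, ACGTG, stood in the 250 bases before the start of 17 of 27 genes of the hypoxia list (63.0%), against 25.1% of all tested genes with a promoter in the RefSeq table, 24.6% of those that rose and 26.0% of those that fell. The 17 genes also included some that fell, such as Vegfa. Windows of 3 genes that rose are shown. They are Slc2a1 at chr4:119108645-119108744 (plus strand), Ankrd37 at chr8:45999851-45999950 (minus) and Slc16a3 at chr11:120948967-120949066 (plus), with capitals for each match. The nearest match ends 32, 2 and 10 bases before an annotated start. For Ankrd37 that start lies inside the gene, which spans chr8:45996908-46000414.
Slc2a1: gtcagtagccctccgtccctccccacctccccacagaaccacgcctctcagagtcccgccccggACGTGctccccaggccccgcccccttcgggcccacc
Ankrd37: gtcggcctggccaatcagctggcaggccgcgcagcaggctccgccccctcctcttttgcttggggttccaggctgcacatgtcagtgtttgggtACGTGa
Slc16a3: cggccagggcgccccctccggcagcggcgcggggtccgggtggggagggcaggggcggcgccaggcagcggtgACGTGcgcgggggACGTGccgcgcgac

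Interferon-responsive and antigen presentation genes included Gbp2, whose values are given above. Of 30 listed 20 were tested, of which 13 rose, 7 of them at least 2-fold, and 5 fell (median 0.60). The guanylate-binding proteins are GTPases that interferon induces, and 4 of their genes stand within chr3:142530336-142638008. Gbp2b read 8.28 and 8.79 in F266A -dox, 7.76 and 7.61 in F266A +dox, 6.14 and 6.44 in WT -dox and 5.19 and 4.90 in WT +dox (3.49 ± 0.17, adjusted p = 5.19e-07). Gbp3 read 6.73 and 6.78, 5.62 and 5.77, 5.15 and 4.94, and 4.80 and 5.23 in the same order (1.74 ± 0.13), and Gbp7 read 6.03 and 6.27, 5.77 and 5.66, 5.0 and 5.17, and 4.90 and 4.90 (1.25 ± 0.10). In all 4, Gbp2 included, both F266A groups were above both WT groups. Psmb8, an immunoproteasome subunit, rose by 1.77 ± 0.11, the interferon regulatory factor gene Irf1 by 1.23 ± 0.09, Ifit2, which binds foreign RNA, by 1.05 ± 0.10 and the MHC class I gene H2-K1 by 0.86 ± 0.10. Xaf1, an antagonist of the apoptosis inhibitor XIAP, read 6.23 and 6.41 in F266A -dox, 7.64 and 7.53 in F266A +dox, 6.98 and 7.19 in WT -dox and 8.29 and 8.38 in WT +dox, and fell by 2.02 ± 0.10. Ifitm2, an interferon-induced membrane protein, fell by 0.46 ± 0.09. Members of the list thus moved in both directions.

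Windows of the 4 guanylate-binding genes are shown because each holds GAAA, any 2 bases and GAAA, the repeat of the interferon-stimulated response element. It was found before the start of 9 of the 20 genes of the list (45.0%), against 2.76% of all tested genes with a promoter, 3.43% of those that rose and 2.31% of those that fell. The 9 genes also included some that fell, such as Ifitm2. Capitals mark the matches, which lie on the opposite strand, and Gbp3 holds 2 that overlap. The windows, all on the plus strand, are Gbp2 at chr3:142620559-142620658, Gbp2b at chr3:142594665-142594764, Gbp3 at chr3:142559944-142560043 and Gbp7 at chr3:142530236-142530335, and their nearest matches end 50, 128, 30 and 44 bases before the start. For all 4 motifs a match says only that these letters are present, and overlaps between different motifs occurred in 0 to 4 of the 12331 promoters searched.
Gbp2: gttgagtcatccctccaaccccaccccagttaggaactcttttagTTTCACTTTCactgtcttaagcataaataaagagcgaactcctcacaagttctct
Gbp2b: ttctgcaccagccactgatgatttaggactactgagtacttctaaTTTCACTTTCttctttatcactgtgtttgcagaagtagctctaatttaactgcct
Gbp3: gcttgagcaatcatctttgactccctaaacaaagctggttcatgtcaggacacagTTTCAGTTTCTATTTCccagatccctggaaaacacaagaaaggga
Gbp7: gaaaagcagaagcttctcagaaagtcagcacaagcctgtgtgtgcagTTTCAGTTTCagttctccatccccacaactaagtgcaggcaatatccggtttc

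Cell cycle genes were mixed. Of 15 G1 regulators 6 rose and 5 fell (median -0.08), beside 25.9% higher and 25.0% lower over all genes. Ccnd2, a D-type cyclin, read 7.92 and 7.73 in F266A -dox, 6.81 and 6.74 in F266A +dox, 7.40 and 7.45 in WT -dox and 5.27 and 5.28 in WT +dox (2.55 ± 0.08, adjusted p = 9.58e-08). Cdk6, its kinase partner, rose by 1.17 ± 0.09 and Ccnd1 by 0.97 ± 0.08, while the inhibitor gene Cdkn1b (p27) fell by 0.95 ± 0.08 and the inhibitor gene Cdkn1c, given above, rose. Of 29 mitosis genes 12 fell and 4 rose (median -0.13), none of them by 2-fold. Anln, of the cleavage furrow, fell by 0.67 ± 0.08, the kinetochore genes Cenpf and Knl1 by 0.52 ± 0.09 and 0.49 ± 0.15 and the cyclin gene Ccnb2 by 0.46 ± 0.07, whereas the checkpoint gene Mad2l1 rose by 0.70 ± 0.07. The Knl1 call was lost without WT +dox replicate 2 (-0.28) or F266A -dox replicate 2 (-0.33). Of 26 replication genes 7 rose and 5 fell (median 0.00), near the shares over all genes, with the E-type cyclins Ccne2 and Ccne1 at 1.14 ± 0.10 and 0.61 ± 0.07, the histone mRNA-binding protein gene Slbp at 0.67 ± 0.09, the helicase subunit gene Mcm2 at 0.65 ± 0.06 and the polymerase gene Pola1 at -0.65 ± 0.07. Of 47 ribosomal protein genes 3 rose and 8 fell (median -0.04). Rpl39l and Rpl22l1, paralogs of common subunits, fell by 0.75 ± 0.06 and 0.58 ± 0.08, Rpl27a by 0.51 ± 0.09 and Rpl37 by 0.43 ± 0.08, and Rps6 rose by 0.48 ± 0.07. Ribosomal proteins have many near-identical pseudogenes, so their probe sets may read more than 1 gene.

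Of 12 oncofetal RNA-binding genes and MYC family members 7 rose and 2 fell (median 0.40). Hmga2, an architectural DNA-binding protein of embryonic cells, read 8.68 and 8.59 in F266A -dox, 7.64 and 7.48 in F266A +dox, 7.04 and 7.10 in WT -dox and 6.17 and 6.08 in WT +dox (2.50 ± 0.08, adjusted p = 9.58e-08). Each group was separate from the next. The mRNA-binding genes Igf2bp3 and Igf2bp1 rose by 0.79 ± 0.07 and 0.74 ± 0.08. A list of 22 mRNAs found with WDR5 by RNA immunoprecipitation, of genes that a screen had tied to pluripotency and shorter than the published set, had 19 tested members, of which 11 rose and 2 fell (median 0.40). Beside Myc and Bmp4 they included the nuclear receptor genes Nr6a1 (1.14 ± 0.08) and Rarg (0.67 ± 0.07) and the folate receptor gene Folr1 (1.02 ± 0.09).

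Of 21 members of the methyltransferase complexes that hold WDR5 7 rose and 5 fell (median 0.01), near the shares over all genes given below. Setd1b, a catalytic subunit of a SET1 complex, read 8.39 and 8.21 in F266A -dox, 8.23 and 8.20 in F266A +dox, 8.48 and 8.41 in WT -dox and 7.11 and 7.45 in WT +dox (1.02 ± 0.11), again with WT +dox apart. The MLL3 gene Kmt2c fell by 0.68 ± 0.10, its coactivator partner Ncoa6 by 0.51 ± 0.09, Hcfc2 by 0.44 ± 0.09 and the core subunit gene Rbbp5 by 0.37 ± 0.06. Of 28 Polycomb subunits, which methylate lysine 27 of histone H3 or ubiquitinate H2A, 7 rose and 7 fell (median -0.04), shares close to the 25.9% higher and 25.0% lower over all genes. Mtf2 and Suz12 fell by 0.64 ± 0.07 and 0.52 ± 0.08 and Pcgf1 by 0.44 ± 0.12, and Phc2, Kdm2b and Ezh2 rose by 0.52 ± 0.08, 0.46 ± 0.08 and 0.31 ± 0.07. The 8 tested members of a list of genes linked to DNA methylation all passed the test, 3 higher and 5 lower (median -0.24). Beside methylation enzymes the list counts a cofactor and a cytidine deaminase gene. The de novo enzymes Dnmt3b and Dnmt3a (0.86 ± 0.10, its 5 probe sets at 0.01 to 1.56) and their cofactor Dnmt3l rose, and Dnmt3l read 10.89 and 10.69 in F266A -dox, 10.36 and 10.27 in F266A +dox, 11.23 and 11.24 in WT -dox and 9.60 and 9.65 in WT +dox (1.16 ± 0.08). Tet1, which oxidises methylcytosine, fell by 0.78 ± 0.08 and the cytidine deaminase gene Apobec1 by 1.20 ± 0.08.

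**Figure D3:**
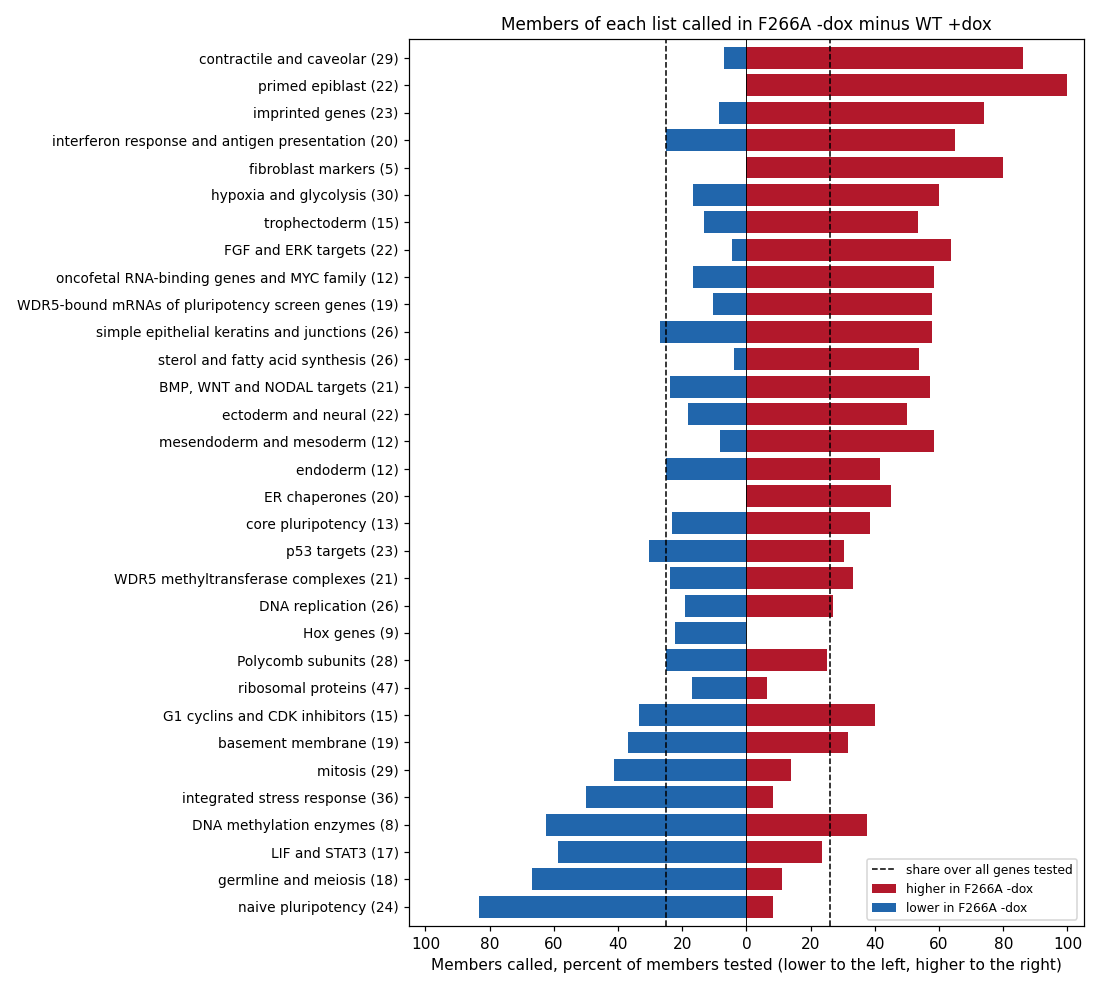
Members of each list called higher (red, to the right) or lower (blue, to the left) in F266A -dox than in WT +dox, as percent of the members tested (number in brackets), ordered by the list's median difference. The dashed lines mark the shares over all genes, 25.9% higher and 25.0% lower; 25 of 29 contractile genes rose and 20 of 24 naive genes fell.

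The place of the other groups was examined next, since F266A +dox shares its line with F266A -dox and WT -dox its medium. Of the 653 genes with at least a 2-fold difference, 597 (91.4%) had both other group means between those of F266A -dox and WT +dox. The wide gap that chose these genes makes such a place likely, so this share is a description only. F266A -dox minus F266A +dox had 1067 genes higher (8.94%) and 1266 lower (10.6%), and F266A -dox minus WT -dox 1676 higher (14.0%) and 1601 lower (13.4%). Against F266A +dox the balance turned without F266A +dox replicate 1 (542 higher and 472 lower) and not without F266A +dox replicate 2 (399 higher and 744 lower), and without F266A -dox replicate 2 the total was 1387. Against WT -dox the total was 2141 without F266A -dox replicate 2, and leaving out either WT -dox array gave 2054 (replicate 1) or 1944 (replicate 2). These contrasts share the F266A -dox arrays with the difference to WT +dox. Fgf5 was 2.81 above F266A +dox and 2.04 above WT -dox, whereas Krt8 was 0.48 above F266A +dox and 2.13 above WT -dox. Naive genes were lower in 15 of 24 against F266A +dox, where 1 was higher, and in 20 of 24 against WT -dox. Primed genes were higher in 14 of 22 against F266A +dox and in 13 of 22 against WT -dox, where 3 were lower. Contractile genes were higher in 17 of 29 against F266A +dox and in 27 of 29 against WT -dox. Hypoxia genes were higher in 15 of 30 and lower in 2 against F266A +dox, and lower in 16 of 30 and higher in 2 against WT -dox.

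**Figure D4:**
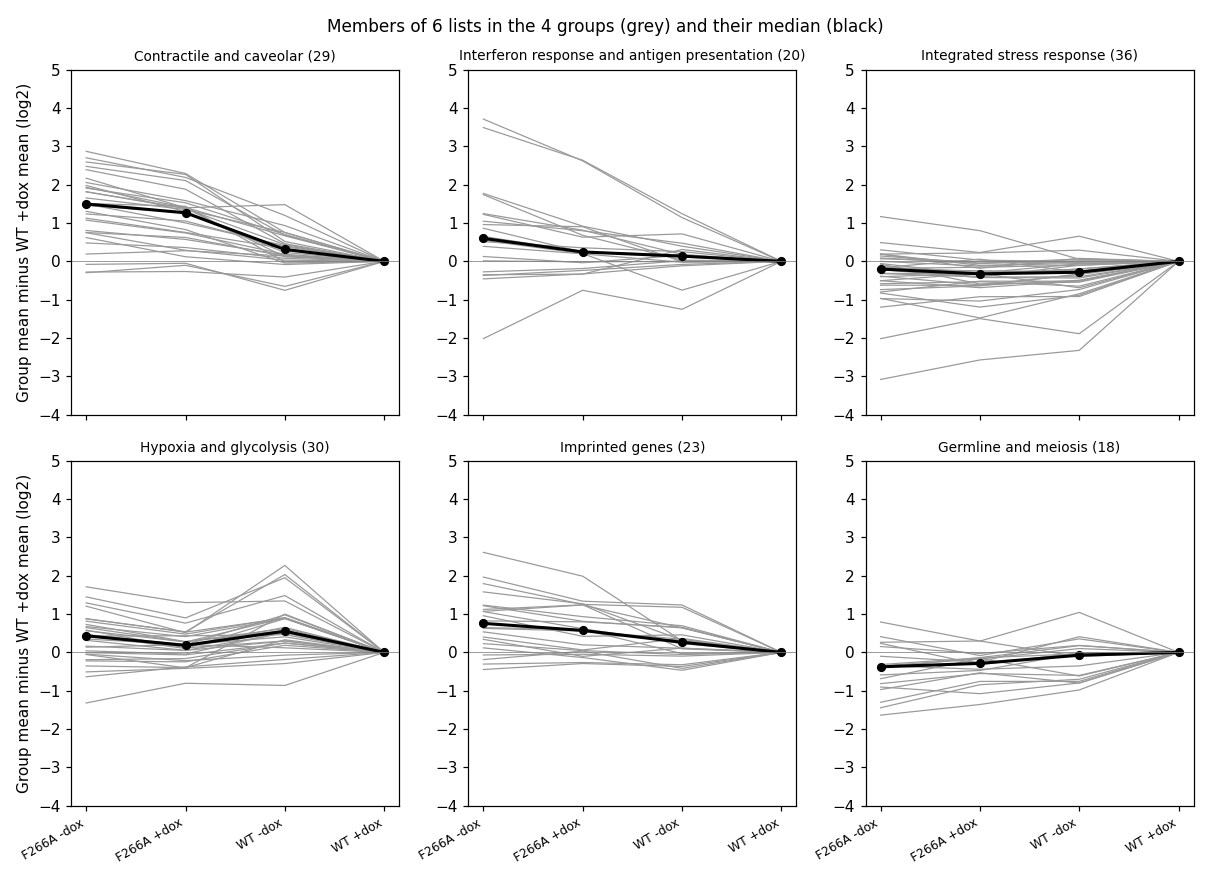
Group mean minus WT +dox mean (log2, vertical axis) of the members of 6 lists (grey lines, 1 per gene) in the 4 groups (horizontal axis), with the median of the list in black. Contractile genes stay high in both F266A groups (median 1.50 in F266A -dox), and 16 of 30 hypoxia genes were lower in F266A -dox than in WT -dox.

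The difference was then divided into a line part, the mean F266A minus WT difference at equal doxycycline, and a withdrawal part, the mean -dox minus +dox difference within a line. The parts sum to the whole difference. Over the 400 genes that rose at least 2-fold the median line part was 0.90 and the median withdrawal part 0.54, and over the 253 that fell -0.64 and -0.66. Which part was larger was tested by F266A +dox minus WT -dox, which called 1085 genes higher (9.09%) and 526 lower (4.41%) of 11940. F266A +dox was above WT -dox in 197 and below it in 34 of the 400 risen genes, and above it in 30 and below it in 18 of the 253 fallen ones. The division is a description of these 2 lines, and the line part cannot be told apart from other differences between them.

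By gene, the parts ranged widely. Cryab, a small heat shock protein, read 9.22 and 9.43 in F266A -dox, 9.18 and 9.08 in F266A +dox, 6.65 and 6.95 in WT -dox and 7.20 and 7.27 in WT +dox, with a line part of 2.21 and a withdrawal part of -0.12. Prss23, a serine protease, read 8.41 and 8.42, 7.98 and 8.16, 5.72 and 6.36, and 5.47 and 5.78 in the same order, with parts of 2.41 and 0.38, and Col4a2 had parts of 1.87 and -0.04. In these genes the line part was several times the withdrawal part in size. At the other end Bnip3 had a line part of -0.27 and a withdrawal part of 1.48, Ankrd37 (7.08 and 7.27, 6.68 and 6.58, 7.73 and 7.62, 5.77 and 5.69) of 0.20 and 1.25 and Spink1 (8.74 and 8.58, 8.15 and 8.10, 9.05 and 9.20, 6.50 and 6.72) of 0.52 and 1.53. Wdr5 itself divided into 0.07 and 0.89. Between these, the naive genes Tcl1 (-0.92 and -0.84), Klf4 (-0.57 and -0.74) and Esrrb (-0.56 and -0.52) and the primed genes Cdh2 (1.51 and 1.67) and Pou3f1 (1.18 and 1.17) had parts of like size. By list, the median line and withdrawal parts were 1.09 and 0.28 for contractile genes, 0.58 and 0.90 for primed genes, -0.50 and -0.32 for naive genes, 0.43 and 0.18 for interferon genes, 0.48 and 0.24 for imprinted genes and -0.05 and 0.41 for hypoxia genes.

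**Figure D5:**
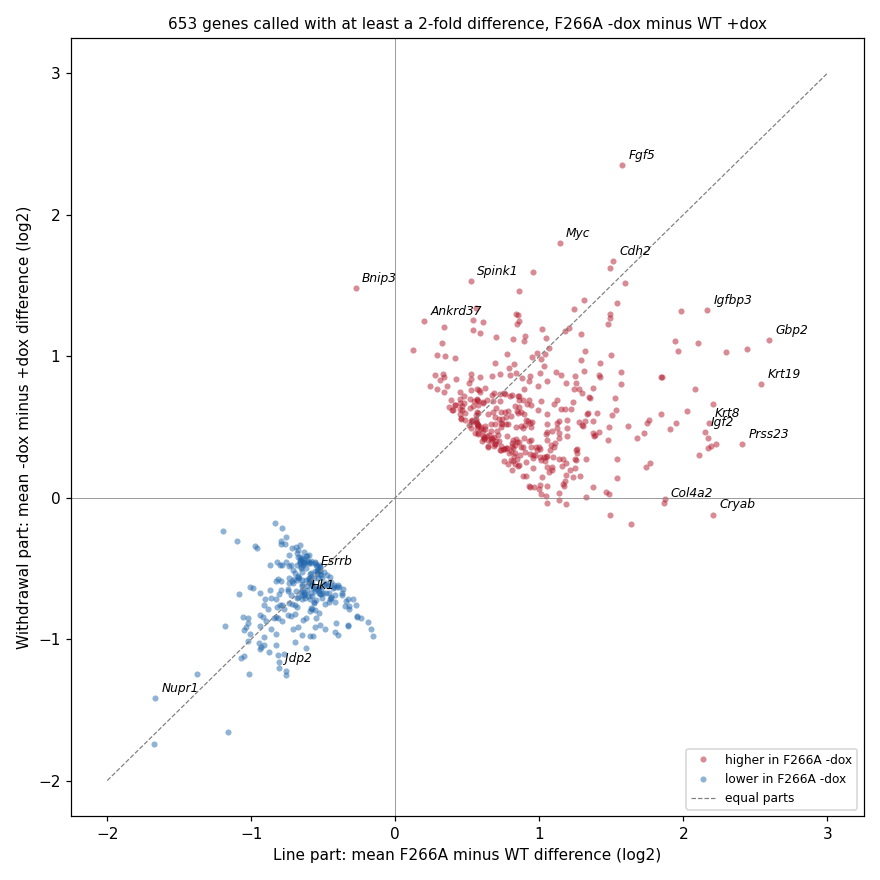
Line part (horizontal axis, log2) against withdrawal part (vertical axis, log2) of the 653 genes with at least a 2-fold difference, F266A -dox minus WT +dox, red where higher in F266A -dox and blue where lower, with equal parts on the dashed line. Cryab (2.21 and -0.12) and Bnip3 (-0.27 and 1.48) lie far to either side of it, and Cdh2 (1.51 and 1.67) close to it; the empty corner between the clouds follows from the 2-fold threshold.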

How the data were processed

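RNA from the 8 cultures had been hybridised to Affymetrix arrays with 45101 probe sets, 1 array per sample. The authors deposited log2 values normalised by RMA, which per the submitters' processing notes was run in R 2.11.1. RMA subtracts background and gives all arrays of a series like distributions, so a shift shared by most genes would not be seen. Sequencing depth does not apply, and the number of arrays limits the precision.

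From these values, 64 control probe sets, 932 with several gene symbols and 9160 with none were left out. The 20046 probe sets with 1 symbol whose linear value exceeded 50 in 1 or more arrays were averaged into 11940 genes (5061 from several probe sets). limma 3.58.1 in R 4.3.3 was fitted to 4 group means (4 residual and 5.321 prior degrees of freedom), two-sided, with Benjamini-Hochberg adjustment in each contrast, and the fit was tested on simulated data. The median standard error of a difference was 0.08. Replicate numbers were not taken as pairing the samples, since deviations of same-numbered arrays correlated at 0.165 and 0.129 within the lines and at -0.176 to -0.111 between them.

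Alternatives were no filter or a minimum of 100, single probe sets in place of gene averages (all of them, or a gene's brightest by mean), quantile normalisation, median centring, the contrast's groups alone, a replicate block, a trended variance prior, array weights, a SAM-type statistic and leaving out each array. The members and gene lists were chosen with earlier results of these data known. Named were 11 fixed genes, the 12 highest and 12 lowest with both means over the minimum, the 6 highest and 6 lowest with a mean under it, up to 8 called members and 3 others of each list, and 3 genes each with the highest and lowest F266A +dox minus WT -dox difference among the 653. Cavin1 was added with its promoter after its values were seen. Gene positions and promoter sequences came from RefSeq tables of GRCm38.p6.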

Additional observations from a re-analysis of the deposited data

Results flagged for a closer look

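The doxycycline withdrawal difference (-dox minus +dox) of 60 of the 224 named genes was not the same in the F266A and the WT line, by limma's interaction term at an adjusted p under 0.05 over all 11940 genes. The values are the F266A difference minus the WT difference, in log2 units, and 12 of the genes had differences of opposite sign in the lines. Over all genes the term called 615, with 264 above and 351 below 0. No explanation was tested.

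In 22 genes the F266A difference lay above the WT difference. They were Nupr1 (1.81), Fgg (1.44), Jdp2 (1.36), Chac1 (1.36), Ddit3 (1.25), Sp5 (1.08), Gbp3 (1.03), Stag3 (0.97), Dsp (0.96), Camk2n1 (0.88) and Trib3 (0.80), followed by Kdelr3 (0.76), Rpl22l1 (0.73), Sycp3 (0.70), Pck2 (0.65), Mixl1 (0.63), Mmp2 (0.57), Atf4 (0.57), Acss1 (0.56), Igf2bp3 (0.52), Eomes (0.49) and Tagln2 (0.46).

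In 38 genes it lay below. They were Spink1 (-1.98), Egln3 (-1.69), Gbx2 (-1.63), Bnip3 (-1.58), Ankrd37 (-1.40), Myc (-1.35), Id3 (-1.31), Dnmt3l (-1.13), Ccnd2 (-1.10), Setd1b (-1.08), Fndc3c1 (-0.98), Egr1 (-0.95) and Slc16a3 (-0.95), then Pim2 (-0.93), Slc2a1 (-0.93), Lrrc31 (-0.87), Dnmt3a (-0.85), Otx2 (-0.84), Nefm (-0.83), Ier3 (-0.83), Pkp2 (-0.78), Dnmt3b (-0.77), Crabp2 (-0.72), Vim (-0.71), Cnn1 (-0.69) and Lrp2 (-0.67), and last Mest (-0.64), Ina (-0.63), Pou3f1 (-0.61), Cdk6 (-0.61), Car2 (-0.58), Ldha (-0.57), Ccnd1 (-0.57), Rpl39l (-0.55), Dppa3 (-0.54), L1td1 (-0.54), Kdm3a (-0.54) and Scd2 (-0.41).

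Probe sets that carry no gene name of their own also differed by at least 2-fold between F266A -dox and WT +dox. Of 1800 over the minimum with no gene symbol, 32 were called higher and 32 lower, and of 577 with several symbols, 19 were called higher and 9 lower.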

How the results depend on the processing

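Against the 6080 genes called between F266A -dox and WT +dox, each probe set on its own gave 9429 of 20046 and, at 2-fold, 1138 against 653. The SAM-type statistic called 0 genes in every comparison, with 2899, 724, 1229 and 616 at an unadjusted p under 0.05 for F266A -dox against WT +dox, F266A +dox and WT -dox and for F266A +dox against WT -dox (6758, 4029, 4619 and 3426 by limma). With residual plus prior degrees of freedom, chosen after seeing the data, it called 2301, 34, 397 and 78, and 32 of the 219 called named genes lost their call. With no filter, 1537 genes were called against F266A +dox (2333 with it) and 1059 between F266A +dox and WT -dox (1611 with it). Leaving out 1 array gave 4931 to 5870 genes against WT +dox, 648 to 685 at 2-fold, 1014 to 2267 against F266A +dox, 1944 to 3219 against WT -dox and 634 to 1738 between F266A +dox and WT -dox. The causes were not tested.

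The replicate block gave 5814 genes against WT +dox, 2079 against F266A +dox, 2978 against WT -dox and 1401 between F266A +dox and WT -dox, and the crossed replicate block, added after seeing the data, 6452, 2827, 3696 and 1921 in the same order. Gata6 was at -0.26 to 0.0251 on leaving out an array, reversed (0.0251) without F266A -dox replicate 2, and Hand1 reversed to -0.10 with no filter, and neither was called at these settings. Of the named genes not called, Pou5f1 and Egr1 passed with the trended prior (-0.12 and 0.20), Egr1 and Hand1 with the crossed block (0.20 and 0.19), Egr1 without WT +dox replicate 2 (0.29) and Stat3 with quantile normalisation (-0.17). With no filter, probe sets under the minimum enter the averages, and 37 called named genes moved by over 1.5 times in the same direction. Tfcp2l1 was at -0.44, Tbx3 at -0.89, Cdx2 at 0.61, Dab2 at 0.46, Fgfr2 at 0.39, Anxa1 at 1.19, Acta2 at 0.60, Cavin1 at 0.61, Igf2 at 1.51, Peg3 at 0.93, Psmb8 at 0.95, Pkp2 at 0.85, Cryab at 1.38, Nr6a1 at 0.54, Slit2 at -0.80, Car8 at -0.73 and Zc3h6 at -1.15, and Amot was at 1.00, Fgf5 at 2.25, Prickle1 at 1.12, Hs6st2 at 0.99, Acss1 at -1.09 and Nrcam at 0.59. With the probe set of highest mean, Cenpf (-0.20) and Mdm2 (-0.11) were not called, and Anln was at -0.21, Tead4 at -0.27, Lifr at -0.86, Vegfa at -0.82, Lin28a at 0.92 and Hspa5 at 0.53. Pcgf1 was not called without WT +dox replicate 1 (-0.31) or F266A -dox replicate 2 (-0.34).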
